A study of Mus musculus with 15 samples.

Results

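The most abundant long intergenic noncoding RNAs (lincRNAs) of the mouse 2-cell embryo are described here across 6 RNA-seq libraries. A lincRNA is a transcript from between protein-coding genes that carries no long reading frame. Most lincRNAs are made by RNA polymerase II, spliced and polyadenylated like messenger RNA, and they are usually present at lower levels than messenger RNA. The embryo at the 2-cell stage degrades transcripts inherited from the oocyte while its own genome begins to be transcribed, so its lincRNAs can come from either source. The 150 lincRNAs were chosen by their measured level: of 53023 genes in the deposited table, 5307 are typed lincRNA, 4634 of these have a length of 200 bases or more and lie outside chromosomes X and Y and the mitochondrial genome, and the 150 with the highest mean over the 6 libraries were taken. The level of each lincRNA chose it, so the ranking is a description and carries no test.

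Each library came from a pool of 5 ICR embryos collected 32 hours after insemination. The study asked what happens to transcription when actin filaments in the nucleus are disturbed, using R62D, a polymerisation-deficient actin, sent to the nucleus by a nuclear localisation signal. Injected embryos received the mRNA 2 hours after insemination. The 6 libraries form 3 pairs whose labels disagree. Pair A (libraries A1 and A2) is titled Wt, for wild-type actin, but annotated Non-injected. Pair B (B1 and B2) is titled R62D but annotated actinWT-HA-NLS. Pair C (C1 and C2) is titled Non-injected control but annotated actinR62D-HA-NLS. The pairs are therefore called A, B and C, and no direction is tied to a treatment. By the titles, pair C against pair B compares non-injected embryos with R62D embryos, and by the annotation it compares R62D with wild-type actin. Whether A1 and A2, B1 and B2, or C1 and C2 were collected separately is not in the labels, so p-values measure only the spread between these libraries, which may be technical. A further 9 libraries, of embryos given Exportin 6 with R62D, actin G15S, or no injection, were not analysed here.

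The depth recovered from the table ran from 907210 assigned reads in C2 to 1555431 in C1. All values are FPKM, the fragments assigned to a gene scaled by its length and by the library's depth, so a level is relative to the rest of its library. In these pools fewer cells of a type and less RNA per cell cannot be told apart. All 7 markers of the 2-cell stage and 6 of 7 oocyte markers had a mean of at least 1 FPKM. Cumulus cell markers summed to between 1 and 8 reads in a library, with 5 of 10 at 0 throughout, and sperm markers to at most 1.5 reads. Markers of trophectoderm and later stages summed to 17 reads in B2 and to between 1 and 5 reads in each other library. In summed markers, libraries A2 and C2 stood apart. Their summed level of 7 oocyte markers was 660 and 710 FPKM, against 1164 to 1491 FPKM in the others. Their summed level of 7 markers of the 2-cell stage was 922 and 1082 FPKM, against 1409 to 2528 FPKM. Single markers differed. C2 lay above B1 for Tdpoz4 (42.8 and 32.0 FPKM), Zscan4c (41.8 and 37.5 FPKM) and Nlrp5 (4.66 and 3.83 FPKM). C2 lay above C1 for Tcstv3 (499 and 405 FPKM), and Zp3 was highest in A2 (142 FPKM).

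The 150 lincRNAs made up a small and steeply ranked part of the transcriptome. Their mean levels fell from 523 FPKM for Gm10076 to 6.68 FPKM for Gm45083, with a median of 15.9 FPKM. Of the 150, 19 had a mean of at least 100 FPKM, 89 lay between 10 and 100 FPKM, and 42 lay under 10 FPKM. The first 10 held 39.6% of the summed level and the first 20 held 59.5%. The 150 lincRNAs together held 84.5% of the level of all 4634, and took between 0.708% and 1.03% of the assigned reads of a library. The median lincRNA of the 150 rested on 20.9 reads per library, 115 had a mean of at least 10 reads, and 40 had at least 50. All 150 passed the filter of a mean of 1 FPKM used for testing, and 142 were above 0 in every library. The limit of 150 fell in a continuous slope. Just inside it lay Gm45587 and Gm14461, both at 6.71 FPKM, and Gm45083 at 6.68 FPKM. Just outside lay Gm29593 at 6.68, AC132260.2 at 6.64 and Gm4349 at 6.61 FPKM.

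**Figure D1:**
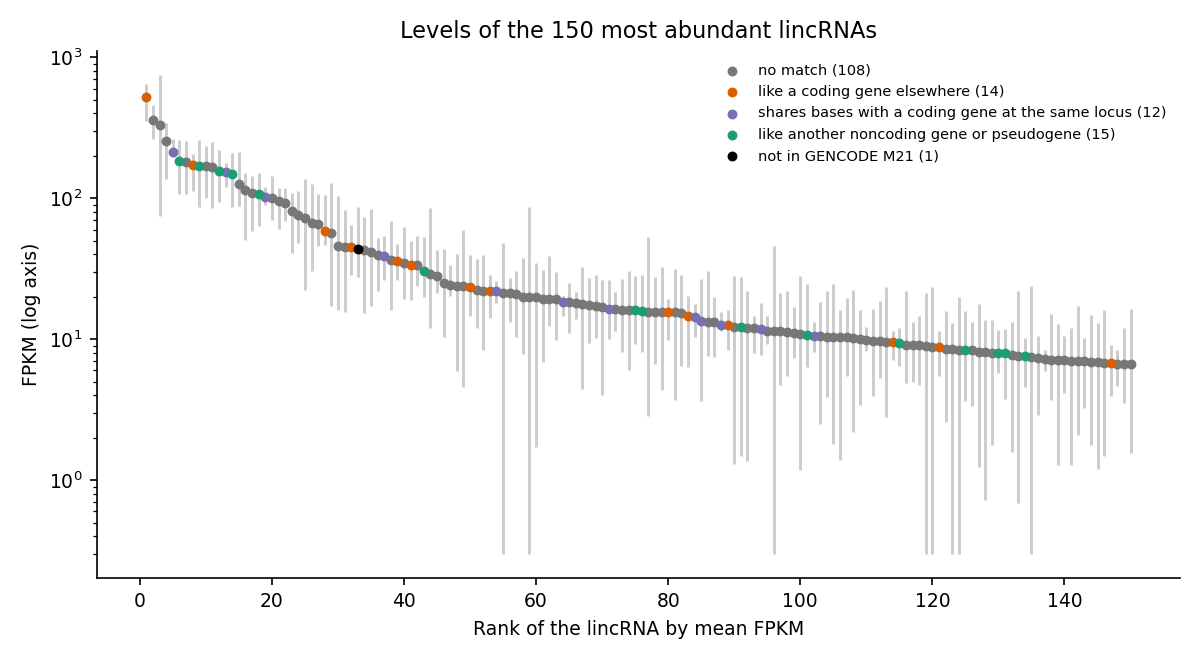
Mean FPKM (points, log axis) of the 150 lincRNAs by rank, with a line from the lowest to the highest of the 6 libraries. Lines end at 0.3 FPKM where a library is lower. Colours give the sequence class described in the text. The mean falls from 523 to 6.68 FPKM, and lincRNAs that share sequence with a coding gene (orange and purple) are found along the whole ranking.

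Few of these lincRNAs carry a given name. A list of 86 named long noncoding RNAs, most of them hosts of small nucleolar RNAs or transcripts with a described role, gave 80 rows in the table. Of these rows 36 had a mean of at least 1 FPKM, 17 were listed at 0 throughout, and 9 were among the 150. The 9 were Dancr (2 records), Snhg10, Snhg20, Platr30, Epb41l4aos, Snhg6, Malat1 and Mir17hg. The hosts Snhg5 (191 FPKM), Gas5 (58.6 FPKM) and Snhg3 (48.0 FPKM) are listed at higher levels. They are typed processed transcripts and so fell outside the rule.

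The RNA at the top of the ranking, Gm10076, could not be told apart from a ribosomal protein messenger. Gm10076 lies at chr14:105681828-105682211 on the plus strand (mm10), is a single exon of 384 bases, and is 210 kb from the nearest coding gene, Spry2. Its transcript was 99.5% identical over 383 bases to that of Rpl41, which encodes a protein of the large ribosomal subunit. The coding sequence of Rpl41 and the matching bases 42 to 119 of Gm10076 are shown because they are the same in all 78 bases.
Rpl41: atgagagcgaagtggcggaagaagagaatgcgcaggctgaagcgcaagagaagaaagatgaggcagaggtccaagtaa
Gm10076: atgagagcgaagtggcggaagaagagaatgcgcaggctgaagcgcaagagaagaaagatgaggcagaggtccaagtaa
Gm10076 was at 559 FPKM in A1, 651 in A2, 583 in B1, 354 in B2, 513 in C1 and 477 in C2. Rpl41 had a mean of 885 FPKM. Both were highest in A2 and lowest in B2, and Gm10076 had part reads, the sign that reads were split between genes, in all 6 libraries. The level of Gm10076 was not separated from reads of Rpl41.

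Sequence likeness was then measured for every lincRNA of the 150. Transcripts of GENCODE M21, which holds 149 of the 150, were compared with those of every other gene, and a match was an alignment of at least 200 bases at 95% identity or more. No match was found for 108 lincRNAs, which held 60.6% of the summed level. A coding gene elsewhere in the genome matched 14 lincRNAs (15.2% of the level), and a coding gene at the same locus matched 12 (9.70%). A further 15 (13.8%) matched only noncoding genes or pseudogenes. Of the 26 lincRNAs that matched a coding gene, 21 lay in the antisense direction to it. How the counting treated strand is not given in the sources used here, so sense and antisense reads cannot be told apart. Whole reads in all 6 libraries were found for 69 of the 108 lincRNAs with no match, for 1 of 12 matched at their own locus, and for 0 of 14 matched elsewhere.

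Gm26623 and Gm26825 are antisense matches to a coding gene elsewhere, and each overlaps a processed pseudogene on the other strand. Gm26623 (chr12:83620210-83621174, plus strand) matched H2afz, the gene of histone variant H2A.Z, at 97.5% over 708 of its 850 bases. Gm26825 (chr5:5781530-5783636, plus strand) matched Hspa8, the gene of the constitutive heat shock protein Hsc70, at 99.6% over 1940 of its 2026 bases. Stretches of the coding sequences are shown beside the reverse complement of the lincRNA to show how few bases differ, which are in capitals. Positions count from 1 at the first base shown, with the coding gene's base first. H2afz and Gm26623 differed by T13G, G28A, G51A, C73T and C78T, and Hspa8 and Gm26825 by G28A.
H2afz: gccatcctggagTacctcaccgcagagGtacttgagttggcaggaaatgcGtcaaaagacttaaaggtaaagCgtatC
Gm26623: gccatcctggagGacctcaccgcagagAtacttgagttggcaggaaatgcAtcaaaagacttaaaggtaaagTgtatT
Hspa8: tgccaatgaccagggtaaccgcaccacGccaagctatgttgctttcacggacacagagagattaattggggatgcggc
Gm26825: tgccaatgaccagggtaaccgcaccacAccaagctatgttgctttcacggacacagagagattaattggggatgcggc
Gm26825 was at 19.5 FPKM in A1, 44.8 in A2, 19 in B1, 49.9 in B2, 33.6 in C1 and 35.4 in C2. Hspa8 was at 30.7 FPKM in A1, 67.9 in A2, 32.7 in B1, 76.3 in B2, 48.6 in C1 and 63.2 in C2. The lincRNA and the coding gene were lowest in the same 2 libraries, A1 and B1, and highest in B2. Gm26623 was between 112 FPKM in B2 and 207 FPKM in C2, and H2afz was likewise lowest in B2 (805 FPKM) and highest in C2 (1444 FPKM).

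For the 12 lincRNAs matched at the same locus, the lincRNA and the coding gene share bases of the genome itself. Some of the 108 with no match also overlap exons of a coding gene. Gm26773 overlaps 367 exonic bases of Tgds, and 2610020C07Rik overlaps 239 of Gspt1. The most abundant of the 12 was 2310031A07Rik (chr11:46440362-46447248, minus strand), which overlaps 609 exonic bases of Med7, a Mediator subunit on the plus strand. 2310031A07Rik was at 196 FPKM in A1, 214 in A2, 197 in B1, 197 in B2, 208 in C1 and 265 in C2, with Med7 at a mean of 92.2 FPKM. Gm17275 (chr1:180802568-180809483) lies over 638 exonic bases of H3f3a, the gene of histone H3.3, and had a mean of 153 FPKM beside 141 FPKM for H3f3a. Gm26819 (chr13:69809914-69816094) lies over 4168 exonic bases of Med10, another Mediator subunit, with means of 102 and 116 FPKM. Gm26819 was at 91.5 FPKM in A1, 121 in A2, 96.0 in B1, 89.6 in B2, 95.9 in C1 and 117 in C2. Med10 was at 104 FPKM in A1, 138 in A2, 110 in B1, 102 in B2, 109 in C1 and 134 in C2. The level of Gm26819 was not separated from reads of Med10.

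**Figure D2:**
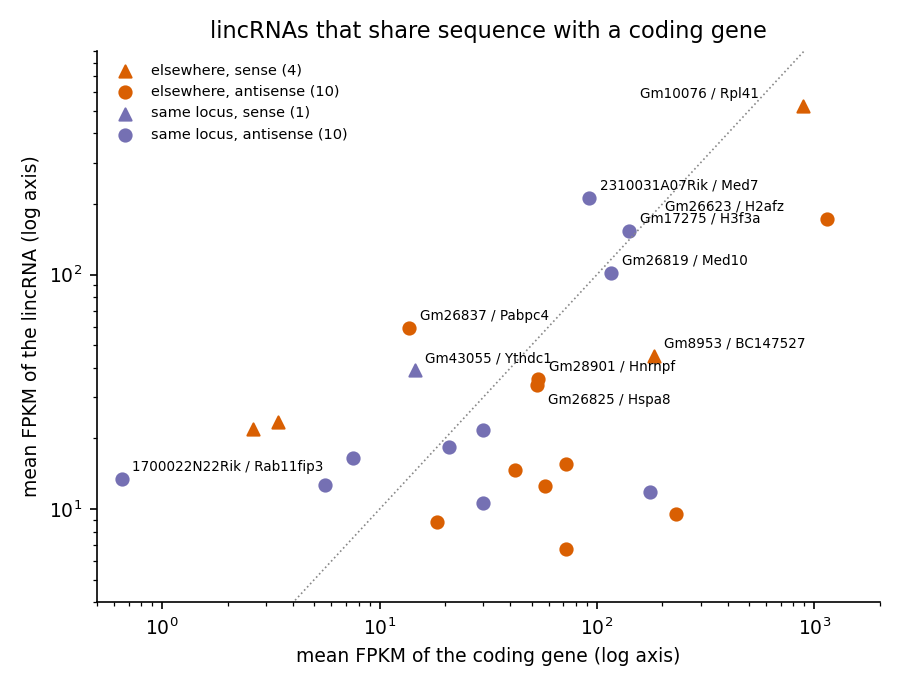
Mean FPKM over the 6 libraries of each lincRNA that shared sequence with a coding gene (vertical, log axis) against that gene (horizontal, log axis), for 25 of 26 pairs; the dotted line marks equal levels. Triangles are sense matches and circles antisense matches. Gm10076 and Gm26623 sit at the right, where Rpl41 and H2afz reach 885 and 1148 FPKM, and 2310031A07Rik sits above its partner Med7.

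Chromosome 13 supplied 4 near-identical copies and a more distant relative among the first 18 lincRNAs. CT033783.1 (183 FPKM), Gm7969 (157 FPKM) and CT033783.2 (148 FPKM) are each 2884 bases in 3 exons on the plus strand. They follow one another at chr13:67949751-67954507 (Gm7969), chr13:67965483-67970239 (CT033783.1) and chr13:67981215-67985971 (CT033783.2). CT033783.1 and CT033783.2 were identical, and Gm7969 was 99.97% identical to each of them. Gm8016 (chr13:68353364-68356825, minus strand) matched CT033783.1 at 97.6% over 1576 aligned bases, and CT033781.3 (chr13:68488998-68491389, minus strand) aligned to it at 92.7% over 506, below the limit used for a match, so it counts among the 108. Transcript bases 798 to 887 of Gm7969, which CT033783.1 and CT033783.2 also hold, are set against Gm8016 to show how little separates the copies. The capitals mark C21A, T79C, G85A, G88A and C90T, counted from the first base shown with the base of Gm7969 first.
Gm7969: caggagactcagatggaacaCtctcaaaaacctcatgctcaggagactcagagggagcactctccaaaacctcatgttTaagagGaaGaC
Gm8016: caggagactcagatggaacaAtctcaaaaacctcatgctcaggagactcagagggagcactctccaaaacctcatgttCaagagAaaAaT
CT033783.1 was at 195 FPKM in A1, 108 in A2, 196 in B1, 259 in B2, 204 in C1 and 138 in C2. Gm8016 was at 109 FPKM in A1, 63.6 in A2, 113 in B1, 150 in B2, 117 in C1 and 89.6 in C2. All 5 lincRNAs were lowest in A2 and highest in B2. With such likeness the 4 copies are uncertain as single genes and are not independent measurements. CT033781.3 also had part reads in all 6 libraries. Whether the genes it shares reads with are these copies was not tested.

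Chromosome 13 carried 23 of the 150 lincRNAs, or 15.3%, where it carried 8.85% of the 4634. More of the 150 had another of the 150 within 50 kb, 16 (10.7%) against 94 of the 4634 (2.03%). Of the 16, 7 are records that cannot be counted apart from a neighbour: Gm7969, CT033783.1, CT033783.2, Platr30, Gm17575 and the 2 Dancr records. On chromosome 6, Gm1965 (chr6:89140994-89147388), Gm6507 (chr6:89184672-89186025) and Gm839 (chr6:89211165-89216237) are neighbours, and the nearest coding gene of Gm839, Plxna1, is 100.1 kb away. Gm839 had a mean of 254 FPKM, Gm6507 of 99.8 FPKM and Gm1965 of 72.0 FPKM. They did not vary alike: Gm1965 was lowest in A2 and C2, Gm839 in C2 and C1, and Gm6507 in C2 and A1. Gm839 and Gm6507 had part reads in all 6 libraries and Gm1965 in 3, so their levels may include reads shared with other genes. On chromosome 3, Platr30 and Gm17575 matched each other at 99.7% and could not be counted apart, with means of 16 and 15.7 FPKM. The 2 Dancr records overlap on the same strand at chr5:74093060-74095406 and hold equal read values (52.6 per library). Both had part reads in all 6 libraries, so each record may hold only a share of the reads of the locus. Their levels of 43.4 and 19.3 FPKM differ by the length assigned to each record, 1043 and 2347 bases, so they too are 1 measurement.

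An exon of another gene was overlapped by 43 of the 150 lincRNAs (28.7%), against 16.2% of the 4634, and 22 (14.7%) lay within the span of a coding gene, against 10.2%. A start of a coding gene on the other strand lay within 1 kb of the start of 14 of the 150 (9.33%, against 6.95%). The closest was that of 2010015M23Rik, 13 bases from the start of Srsf1, the gene of a splicing factor. Gm26910 starts 19 bases from Seh1l, the gene of a nuclear pore protein, and 1700022N22Rik starts 19 bases from Capn15, the gene of a calpain. 2610020C07Rik starts 52 bases from Rsl1d1, and 2010320M18Rik starts 102 bases from Pik3r2, the gene of a regulatory subunit of PI3 kinase. These 5 had means between 9.12 FPKM (2610020C07Rik) and 20.02 FPKM (Gm26910). The polyadenylation signal AATAAA or ATTAAA was present in the last 40 bases of a transcript for 76 of 149 lincRNAs (51.0%), against 44.3% of those with sequence among the 4634. Lengths had a median of 938 bases, against 1017.

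RefSeq promoter windows (GRCm38.p6, 250 bases before to 50 after a start) within 1 kb of the table's start were found for 38 of the 150 lincRNAs. On either strand CCAAT, the letters bound by NF-Y, was present in 12 of 38 (31.6%, against 37.4% of 32851 promoters). TATAAA, the TATA box, was present in 2 (5.26%, against 13.6%), and CACGTG, the E-box, in 1 (2.63%, against 7.15%). GGATTA, the letters bound by Obox proteins, was present in 1 (2.63%, against 7.06%), and the Nr5a2 letters TCAAGGTCA and TCAAGGCCA were present in 0 of 38 (against 0.423% and 0.591%). The windows of C86187 and Gm839 are shown because both lincRNAs are among the first 10 and each holds a searched motif, in capitals. TATAAA begins 25 bases before the RefSeq start of C86187 (chr7:46975862-46976161, minus strand) and GGATTA 23 bases before that of Gm839 (chr6:89216130-89216429, minus strand). The RefSeq start of Gm839 lies 58 bases inside the span of the table, so its GGATTA is within that span.
C86187: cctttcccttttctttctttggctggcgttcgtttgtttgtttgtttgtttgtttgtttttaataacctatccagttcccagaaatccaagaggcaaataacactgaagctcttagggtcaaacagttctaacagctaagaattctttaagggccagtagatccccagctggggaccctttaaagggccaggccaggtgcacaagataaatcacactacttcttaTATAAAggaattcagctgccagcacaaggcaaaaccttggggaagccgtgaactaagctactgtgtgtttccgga
Gm839: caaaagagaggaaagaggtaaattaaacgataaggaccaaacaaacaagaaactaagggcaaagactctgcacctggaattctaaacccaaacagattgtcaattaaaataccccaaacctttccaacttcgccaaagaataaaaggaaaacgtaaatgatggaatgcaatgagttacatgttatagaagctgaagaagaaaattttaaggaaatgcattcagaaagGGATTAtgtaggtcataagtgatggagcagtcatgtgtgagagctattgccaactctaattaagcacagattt

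Among the lincRNAs with no match, the levels varied widely between libraries of the same pair. AA545190 (chr6:10971560-10979638, minus strand, 5 exons, 921 kb from the nearest coding gene) was at 752 FPKM in A1 and 74.9 in A2, at 378 in B1 and 184 in B2, and at 482 in C1 and 122 in C2. A1, B1 and C1 were above A2, B2 and C2 in every case, and the groups defined by pair overlapped. Its standard deviation over the 6 libraries was 1.26 on the log2(FPKM + 1) scale, the highest among the 40 lincRNAs with at least 50 reads, whose median was 0.46. Gm1965 followed at 1.11, with 138, 82.3 and 109 FPKM in A1, B1 and C1 and 22.3, 58.2 and 22.7 FPKM in A2, B2 and C2. Gm3143, D6Ertd474e and Gm38407 had standard deviations of 0.99, 0.80 and 0.77, and each was likewise higher in A1, B1 and C1.

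The steadiest lincRNAs with at least 50 reads included some that matched a coding gene and some with no match. Gm26582, which overlaps exons of G3bp2, had a standard deviation of 0.16, 2310031A07Rik of 0.17 and Gm26819 of 0.18. All 3 overlap a coding gene on the other strand, and their levels were not separated from reads of that gene. 2010110K18Rik and AU020206, which have no match, followed at 0.26 each. AU020206 was between 20.2 FPKM in C1 and 33.9 FPKM in A1. Over all genes tested the median standard deviation was 0.45, and over the 150 lincRNAs it was 0.61.

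**Figure D3:**
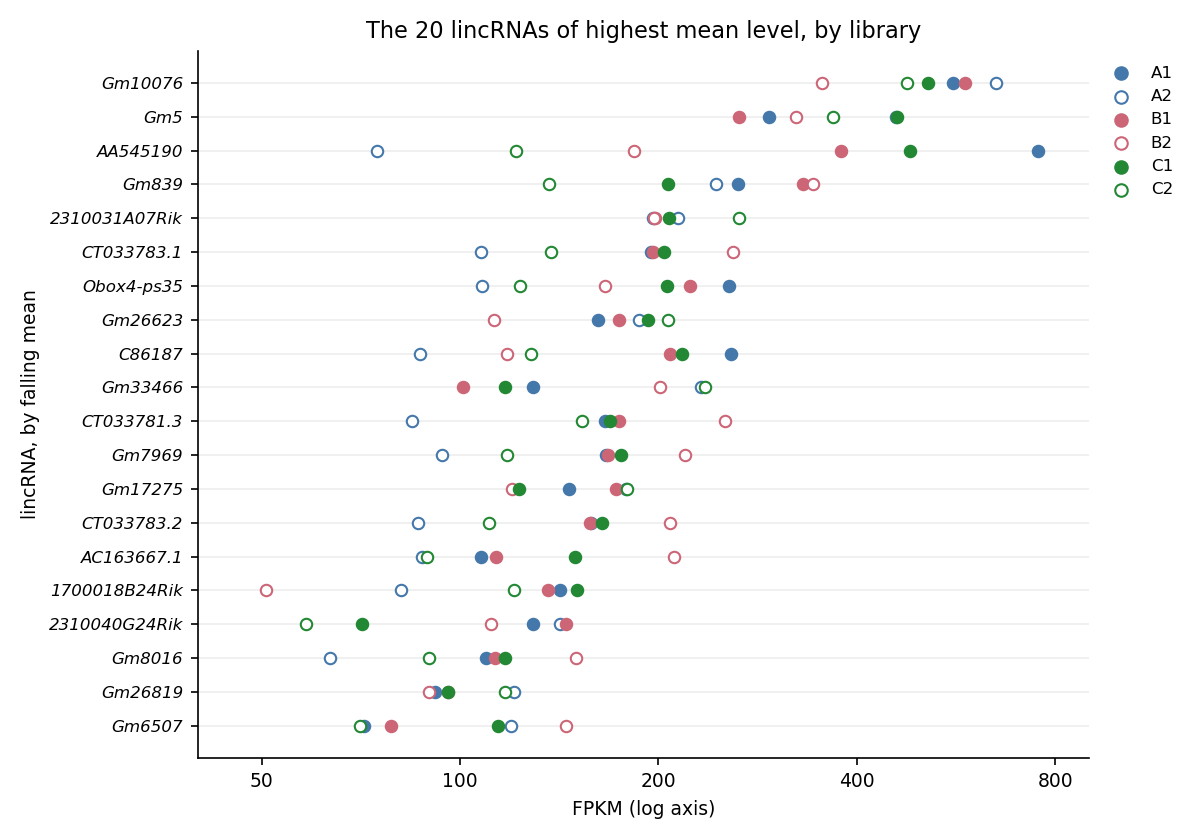
FPKM (log axis) in each library of the 20 lincRNAs of highest mean level; colours mark the pair, filled points library 1 and open points library 2. AA545190 spreads from 74.9 to 752 FPKM, the filled points of C86187 lie above its open ones, Gm33466 is the other way round, and 2310031A07Rik stays between 196 and 265 FPKM.

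In each pair, the libraries numbered 1 held more of these lincRNAs than the libraries numbered 2. Their summed level was 7918 FPKM in A1 and 5759 in A2, 6976 in B1 and 5972 in B2, and 6837 in C1 and 5300 in C2. Of the 150 lincRNAs, 97 were higher in A1 than in A2 (64.7%, against 53.2% of all 13443 genes tested), 103 were higher in B1 than in B2 (68.7%, against 48.4%), and 111 were higher in C1 than in C2 (74%, against 59.7%). The median difference was 0.45 in pair A, 0.38 in pair B and 0.45 in pair C on the log2(FPKM + 1) scale, where all genes had 0.06, 0.00 and 0.17. The labels do not say that the number marks a day or a batch, and the pattern was noticed after the values were seen, so it is a count with no test.

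Counted over all 6 libraries, 45 of the 150 lincRNAs had each of A1, B1 and C1 above each of A2, B2 and C2, or 30%, against 10.1% of all genes tested. The opposite order held for 7, or 4.67%, against 4.78%. Among the 323 other lincRNAs tested the first order held for 14.6%, and among protein-coding genes for 10.6%. Choosing lincRNAs by their mean favours those that are high in some library, and what part this has in the count was not tested. Without A2 and C2, the libraries that stood apart, A1, B1 and C1 were all above B2 for 79 of 150 lincRNAs (52.7%), against 27.2% of all genes. Depth was lower in A1 (1000124 reads) than in A2 (1117950 reads). It was higher in B1 (1264831 reads) than in B2 (1194638 reads), and in C1 (1555431 reads) than in C2 (907210 reads). The summed oocyte markers were 1491, 1381 and 1211 FPKM in A1, B1 and C1, and 660, 1164 and 710 FPKM in A2, B2 and C2. Each of A1, B1 and C1 was above each of A2, B2 and C2 for Gdf9, Oog1 and Bmp15, 3 of the 7 markers. Zp3 was lower in the library numbered 1 of each pair (96.0 and 142, 64.8 and 92.4, 69.0 and 84.1 FPKM), Nlrp5 was higher in B2 (7.43 FPKM) than in B1 (3.83 FPKM), and Oosp1 was higher in B2 (723 FPKM) than in C1 (621 FPKM). The summed markers of the 2-cell stage were highest in B2, at 2528 FPKM. The part of depth or of these markers in the result was not tested.

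C86187 was at 258, 208 and 217 FPKM in A1, B1 and C1 and at 86.9, 118 and 128 FPKM in A2, B2 and C2. Obox4-ps35, named as a pseudogene copy of the oocyte and embryo homeobox gene Obox4, was at 256, 223 and 206 FPKM in A1, B1 and C1 and at 108, 166 and 123 FPKM in A2, B2 and C2. Both are among the 45, and the lowest value of each lay in A2. 1700018B24Rik followed the same order, with 142, 136 and 151 FPKM against 81.5, 50.8 and 121 FPKM, but was lowest in B2. Platr30, of a set named for its association with pluripotency, was at 28.2, 13.5 and 24.6 FPKM against 9.31, 10.1 and 10.3 FPKM.

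The order was seen in 37 of the 108 lincRNAs with no match (34.3%), in 3 of the 26 that matched a coding gene (11.5%), and in 28 of the 71 with whole reads in every library (39.4%). In the lincRNAs that matched a coding gene, the median differences were -0.10 in pair A, -0.01 in pair B and -0.05 in pair C. The 7 in the opposite order included Gm33466 (chr3:157720404-157726408, minus strand), which was at 129, 101 and 117 FPKM in A1, B1 and C1 and at 232, 201 and 236 FPKM in A2, B2 and C2. Gm26825, Snhg20, Gm16755, Gm26882 and Epb41l4aos were also among them.

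**Figure D4:**
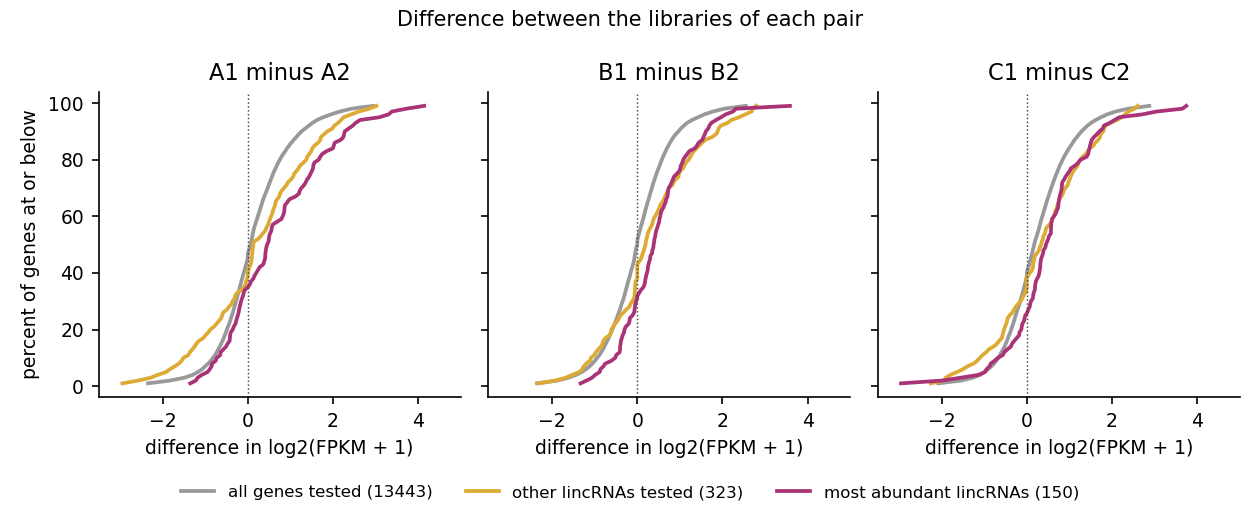
Cumulative percent of genes (vertical) against the difference between the libraries of each pair in log2(FPKM + 1) (horizontal), for the 150 lincRNAs, the 323 other lincRNAs tested and all 13443 genes tested. The curve of the 150 lies to the right of that of all genes through the middle of each panel, with medians of 0.45, 0.38 and 0.45.

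The hosts of small RNAs among the lincRNAs ranked here, Dancr, Snhg10, Snhg20, Mir17hg and Snhg6, were each highest in A2 or C2. Hosts outside the ranking were mixed. Of those named Snhg with a mean of at least 1 FPKM, Snhg1, Snhg3, Snhg5, Snhg9 and Snhg15 were also highest in A2 or C2. Snhg8 and Snhg18 were highest in A1, and Snhg4, Snhg12 and Snhg17 in C1. Dancr, which hosts the small nucleolar RNA Snora26, was at 47.8 FPKM in A1, 87.2 in A2, 33.5 in B1, 27.8 in B2, 35.6 in C1 and 28.8 in C2 by its shorter record. Snhg10 was at 32.1 FPKM in A1, 62.6 in A2, 19.4 in B1, 41.1 in B2, 20.7 in C1 and 31.3 in C2. Snhg20 reached 53.9 FPKM in C2 and lay between 23.7 and 33.9 FPKM elsewhere. Mir17hg, the host of the miR-17 cluster, ran from 1.79 FPKM in B1 to 13.7 FPKM in A2, and Snhg6 from 5.52 FPKM in B1 to 21.9 FPKM in A2. Epb41l4aos rested on 5.75 reads per library and was highest in A2, at 14.6 FPKM. Malat1, a nuclear speckle RNA, was at 24.6 FPKM in A1 and between 6.39 and 9.67 FPKM in the other 5 libraries. A transcript of another gene, Gm37376, overlaps 453 bases of Malat1 on the other strand.

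No lincRNA of the 150 passed the test between pairs. The test was limma on log2(FPKM + 1) over 13443 genes, with a threshold of 0.05 on the Benjamini-Hochberg adjusted p. It called 0 of the 150 lincRNAs and 0 of all genes (0%) in pair C against pair B, in pair C against pair A and in pair B against pair A. The lowest adjusted p of a lincRNA was 1 in both comparisons of pair C and 0.894 in pair B against pair A, while the lowest over all genes was 0.167, 0.344 and 0.334 in the same order. The median standard error of a lincRNA's difference was 0.50 on the log2(FPKM + 1) scale, against 0.47 over all genes. With 2 libraries a pair, a difference that is not called is not shown to be absent. With reads in place of FPKM, limma-voom called 0 of the 150 in each comparison as well.

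At an unadjusted p below 0.05, 6 of the 150 lincRNAs were higher in pair C than in pair B (4%, against 1.64% of all genes) and 6 were lower (4%, against 2.22%). In pair C against pair A, 0 were higher (against 1.67%) and 4 were lower (2.67%, against 1.34%). In pair B against pair A, 1 was higher (0.667%, against 2.77%) and 15 were lower (10%, against 1.79%). The Dancr records, which hold equal read values, are 2 of the lincRNAs lower in pair C than in pair A. They are also 2 of those lower in pair B than in pair A. The counts rest on single libraries. In pair C against pair B they were 8 higher and 4 lower without B1, 3 and 7 without B2, 4 and 8 without C1, and 6 and 2 without C2. In pair C against pair A they were 4 higher and 5 lower without A1, 0 and 8 without A2, 0 and 9 without C1, and 3 and 3 without C2. In pair B against pair A they were 11 higher and 6 lower without A1, 0 and 9 without A2, 3 and 12 without B1, 4 and 4 without B2, and 1 and 8 without C1 or C2. Scaling to equal medians changed the split of all genes in pair B against pair A from 373 higher and 241 lower to 309 higher and 311 lower, and gave 1 higher and 16 lower among the 150. The median difference of the 150 was -0.04 in pair C against pair B, -0.12 in pair C against pair A and -0.09 in pair B against pair A, with 0.00, 0.06 and 0.07 over all genes. Leaving out 1 library turned the sign of each: the median ran from -0.25 (without C1) to 0.19 (without B1) in pair C against pair B, from -0.44 (without A2) to 0.08 (without A1) in pair C against pair A, and from -0.36 (without A2) to 0.15 (without B2) in pair B against pair A. The comparisons share pairs, so a lincRNA that stands apart in 1 pair appears in 2 of them.

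**Figure D5:**
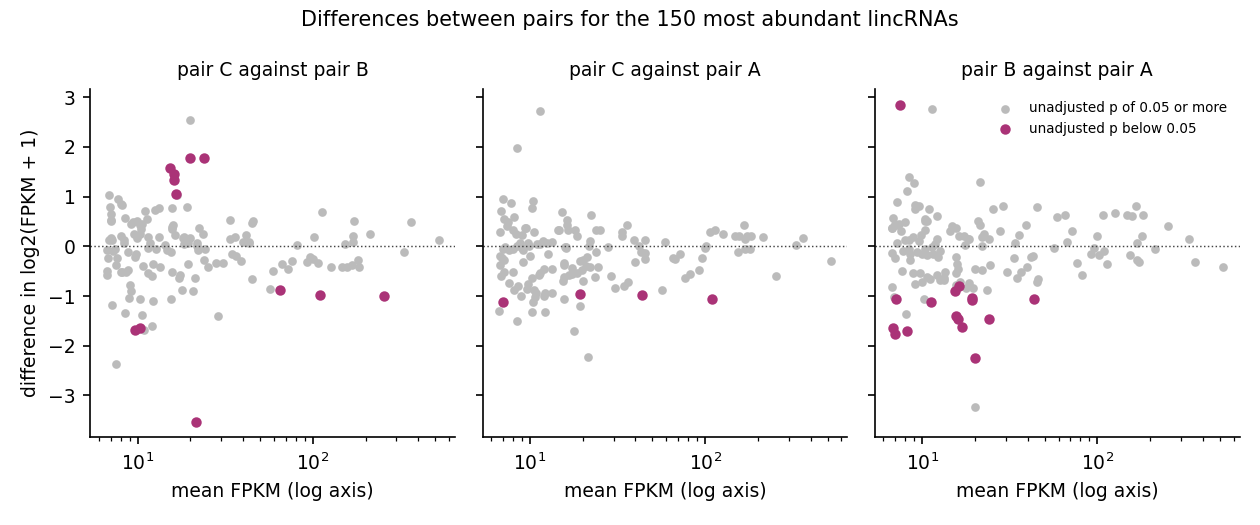
Difference between pairs in log2(FPKM + 1) (vertical) of each of the 150 lincRNAs against its mean FPKM (horizontal, log axis) in the 3 comparisons; coloured points have an unadjusted limma p below 0.05. The coloured points lie on both sides in pair C against pair B (6 and 6) and mostly below 0 in pair B against pair A (1 and 15), and none was called after adjustment.

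The lincRNAs named here had pairs that did not overlap and the lowest unadjusted p in their direction. 2310040G24Rik (chr6:86483376-86488227, minus strand) was lower in pair C than in either other pair in these libraries. It was at 129 FPKM in A1, 142 in A2, 145 in B1, 111 in B2, 70.9 in C1 and 58.3 in C2, and C1 and C2 lay below all 4 others. Its difference was -0.97 (SE 0.29) from pair B and -1.06 (SE 0.29) from pair A on the log2(FPKM + 1) scale, with an adjusted p of 1 in each.

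Gm839 was at 207 and 137 FPKM in C1 and C2 and at 332 and 343 FPKM in B1 and B2, a difference of -1.002 (SE 0.29), with A1 and A2 between them at 264 and 244 FPKM. AI427809 was at 5.70 and 2.79 FPKM in C1 and C2 and at 9.68 and 23.3 FPKM in B1 and B2. In the other direction, AC134860.2 was at 26.7 and 20.7 FPKM in pair C and at 9.54 and 8.08 FPKM in pair B, a difference of 1.33 (SE 0.33), with 14.5 and 17.7 FPKM in pair A. Gm11381 (38.3 and 28.9 FPKM in pair C, 13.2 and 5.98 FPKM in pair B) and Gm11635 (24.2 and 15.8 FPKM in pair C, 7.08 and 6.00 FPKM in pair B) were the other named lincRNAs in that direction. Gm11381 and Gm11635 rested on 11.8 and 10.7 reads per library. The adjusted p was 1 for all of them. AC134860.2 overlaps 80 exonic bases of the coding gene Rpp40 on the other strand and had part reads in 3 libraries. Gm839 had part reads in all 6 libraries.

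2010320M18Rik (chr8:70776815-70777823, plus strand, single exon), which starts beside Pik3r2, had the lowest adjusted p among the lincRNAs named, 0.894, in pair B against pair A. It was at 27.7 FPKM in A1, 19.5 in A2, 10.2 in B1, 6.64 in B2, 16.6 in C1 and 13.1 in C2, and its difference was -1.39 (SE 0.37). Pair B lay below all 4 other libraries. Gm29290 was at 30.1 and 21 FPKM in pair A and at 13.2 and 9.81 FPKM in pair B, with an adjusted p of 0.991. Gm11635 was lower in pair B than in pair A by the same measure, with 12.5 and 30.5 FPKM in A1 and A2.

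On the higher side in pair B against pair A, none of the named lincRNAs had an unadjusted p below 0.05. Gm8953 was at 57.0 and 64.7 FPKM in pair B and at 42.5 and 28.7 FPKM in pair A, a difference of 0.78 (SE 0.35). It matched the coding gene BC147527 at 96.4% over 825 bases. CT033781.3, the relative of the chromosome 13 copies, was at 174 and 253 FPKM in pair B and at 166 and 84.6 FPKM in pair A. AC160980.2 was at 107 and 73.4 FPKM in pair B and at 49.1 and 65.2 FPKM in pair A. Part reads were found in all 6 libraries for CT033781.3 and AC160980.2, and in 5 for Gm8953.

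In pair C against pair A, the Dancr records stood lowest after 2310040G24Rik, with a difference of -0.99 (SE 0.37) for the shorter record. Pair B lay as low as pair C, so the A libraries, with A2 at 87.2 FPKM, set both differences. On the higher side, AC134860.2 had a difference of 0.53 (SE 0.33), Gm28901 of 0.43 (SE 0.36) and Gm17751 of 0.43 (SE 0.38), and none had an unadjusted p below 0.05. Gm28901 matched Hnrnpf, the gene of an RNA-binding protein, at 99.5% over 410 of its 474 bases.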

How the data were processed

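Pools of 5 embryos were sequenced with paired reads of 50 and 25 bases after 13 PCR cycles and Nextera XT tagmentation, with ERCC RNA added at 1 to 40000, per the labels' protocols. The submitters' processing notes name mm10, Trimmomatic, Trim Galore, cutadapt, STAR and featureCounts. Neither the annotation release nor the strand setting was given in the sources used here. The authors deposited FPKM values with a gene length in bases (another kind of column, taken as a number of bases), and 0 columns of other samples were present. FPKM times length, divided by 1 factor per library, gave reads, which were multiples of 0.01 read, so reads had been shared between genes. No molecular identifiers marked PCR copies, so read numbers overstate independent molecules. The depth was 907210 to 1555431 assigned reads.

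Values were taken as log2(FPKM + 1), and 13443 genes (mean FPKM of 1 or more) were fitted together over the 3 pairs with limma 3.58.1 in R 4.3.3 (variance trend, Benjamini-Hochberg adjustment over all 13443). The fit recovered the fold changes of simulated data, where it passed more unchanged genes than its threshold states. Changes were simulated only in genes with more reads than many of the 150, so recovery was not tried for lincRNAs with few reads. Sequence likeness came from blastn 2.17.0. Groups are the pairs of the titles. Named lincRNAs are the first 20 by mean, those with a given name, the 3 lowest unadjusted p per comparison and direction among non-overlapping pairs with at least 10 reads, the 5 largest and 5 smallest standard deviations at 50 reads or more, the 3 on either side of the limit of 150, and the 5 closest to a coding start on the other strand. The 150 lincRNAs, the lists and the tests were chosen with earlier results of these data known. Alternatives covered the pseudocount, filter, scaling, variance model, block, each library left out and limma-voom. The values of a coding gene at the locus of 1 lincRNA are not reported here.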

Additional observations from a re-analysis of the deposited data

How the results depend on the processing

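The count of 0 called lincRNAs held in each comparison under all alternatives tried. The 18 differences of named lincRNAs also kept their sign in every one. Those 18 were chosen from pairs that do not overlap, so most alternatives, such as leaving out a library, could not reverse them. Over all genes, a pseudocount of 0.1 called 1 gene in pair C against pair B, Igkv13-87, which is not among the 150 and is listed at 0 in C1 and C2. With the replicate number as a block, 0 lincRNAs and 0 genes were called in each comparison, and 21, 10 and 19 lincRNAs had an unadjusted p below 0.05 in pair C against pair B, pair C against pair A and pair B against pair A, against 12, 4 and 16 without it. The numbers do not pair the samples by the labels, and deviations of same-numbered libraries correlated at 0.098 (A and B), 0.203 (A and C) and 0.005 (B and C) over all genes, and at 0.239, 0.431 and 0.096 over the 150. The count in pair B against pair A was 10 in a fit of those pairs alone and 10 by limma-voom. Without each library in turn, between 142 and 146 of the 150 lincRNAs stayed in the list. Ranking by reads in place of FPKM kept 113, and a length of at least 500 bases kept 131. Leaving out A2 and C2 was chosen after seeing the data and gave 0 calls. Depth limits the list: the lincRNA with the fewest reads had 2.98 per library, and 35 had a mean under 10.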
